A study of Mus musculus with 2 samples.

Results

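The genes described here encode the enzymes that build, sulfate and trim heparan sulfate and chondroitin sulfate chains, measured on Affymetrix arrays in a pair of osteogenic cultures of mouse marrow cells that had not been sorted. The members were found by symbol. Gene names beginning with Chst, Chsy, Chpf, Csgalnact, Hs2st, Hs3st, Hs6st, Ndst, Xylt, Sulf1, Sulf2 or B3gat were taken, together with Ext1, Ext2, Extl1, Extl2, Extl3, Ust, Glce, Dse, Ugdh, B4galt7 and B3galt6. This gave 50 genes of the 18193 that had a probe set of their own. The group was chosen by the deposited signals of these same arrays, since it was picked because Csgalnact1 and Hs6st2 were higher in Cpdm, so those 2 differences are a description and carry no weight as evidence.

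The first culture came from Cpdm mice, the chronic proliferative dermatitis mutant whose mutation removes functional SHARPIN, which belongs to the complex that assembles linear ubiquitin chains. The second came from wildtype mice. Both were kept for 10 days with β-glycerophosphate at 10 mM and ascorbic acid at 50 µg/ml, which push marrow stromal cells towards bone formation. The labels used here do not state the strain, age, sex or number of the mice. There was 1 array per genotype, so no test between genotypes exists and every difference describes this pair of arrays.

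Heparan sulfate and chondroitin sulfate are long, negatively charged sugar chains attached to serines of proteoglycan core proteins. Both start on the same short linker, after which an N-acetylglucosamine commits the chain to heparan sulfate and an N-acetylgalactosamine commits it to chondroitin sulfate. Sulfotransferases, which take sulfate from the donor PAPS, then write a pattern that decides which growth factors, chemokines and matrix proteins bind. In bone and cartilage these chains hold growth factors in the matrix and organise collagen and mineral.

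The values are MAS5 signals, which carry no unit and cannot be compared between different probe sets. A floor was set at percentile 40 of each array, a signal of 18.5 in Cpdm and 18.7 in wildtype, and a lower signal was set to it. A gene counted as measured if its brightest probe set, by mean log2 signal, reached the floor in at least 1 array. Of the 50 members 43 were measured, 33 in both arrays, 5 in Cpdm only and 5 in wildtype only. The other 7, B3gat2, Chst8, Chst9, Chsy3, Hs3st3a1, Hs6st3 and Ndst3, lay below the floor in both arrays and are given no fold. Members seen in 1 array only had to differ to some degree, and for them a fold is a lower bound. As yardsticks of array error, different probe sets of a gene disagreed with a robust SD of 0.32 log2 units over 5250 genes, and 18 hybridisation spike-ins had log2 ratios between -0.22 and 0.20. Neither covers differences between mice, cultures or RNA preparations.

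Markers of several cell types differed between the cultures, beside every result below. Of the 5 osteoblast markers with a probe set of their own, 4 were at least 2-fold lower in Cpdm. The summed signal of the 5 was 3758 in Cpdm against 10066 in wildtype, and Ibsp, 1.31-fold lower, gave 3159 and 4130 of it. Of 5 chondrocyte markers 3 were at least 2-fold lower too (summed 236 in Cpdm against 1680 in wildtype). Acan was 1.63-fold lower, while Sox9 was 1.43-fold higher, at 27.2 in Cpdm against 19.0 in wildtype. Among 3 measured contractile markers, 2 passed 2-fold on the higher side (summed over all 4, 5887 in Cpdm against 2699 in wildtype). Of 6 macrophage markers 1, the leukocyte gene Ptprc, did so (summed 12585 in Cpdm against 10105 in wildtype). Adgre1, Csf1r, Cd68 and Itgam were 1.96-fold, 1.37-fold, 1.21-fold and 1.09-fold higher, and Lyz2 was 1.32-fold lower. Of 6 stromal markers Col3a1 and Cxcl12 passed 2-fold on the higher side and Col1a1 on the lower, Pdgfrb and Thy1 were 1.91-fold and 1.85-fold higher, and the median log2 ratio of the 6 was 0.91. Their summed signal, 9563 in Cpdm against 9146 in wildtype, rests mostly on the brightest probe sets. The endothelial markers Cdh5, Pecam1 and Tek, the lymphocyte markers Cd3g and Cd79a and the erythroid marker Alas2 lay below the floor in both arrays. The other markers of these lists were above it, with endothelial Kdr at 75.7 in Cpdm and 97.9 in wildtype, T cell Cd3e at 25.7 and 30.4, and erythroid Klf1 at 41.0 in both. Of the mast cell markers, Kit read 20.4 in Cpdm against 48.7 in wildtype and Cpa3 read 37.7 against 28.3. Tpsb2 lay below the floor in both arrays. The adipocyte markers Fabp4 and Adipoq read 455 and 27.3 in Cpdm against 532 and 17.7 in wildtype. Sharpin read 162 in Cpdm and 197 in wildtype, which does not check the labels, since the Cpdm mutation need not remove the transcript. Control probe sets for 18S ribosomal RNA, 3 in all, had log2 ratios between -3.75 and -2.37, and the X-inactivation transcript Xist read 1113 in Cpdm against 247 in wildtype. The Y-linked genes were lower in Cpdm by their main probe sets, Eif2s3y at 80.6 in Cpdm against 249 in wildtype, Kdm5d at 54.6 against 168 and Uty at 42.9 against 162. The part of these shifts in the results was not tested. In such bulk samples, fewer cells of a type and less RNA per cell cannot be told apart.

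Of the 43 measured members, 6 exceeded wildtype at least 2-fold in Cpdm, 3 fell short of it at least 2-fold, and 34 lay between. Over all 14055 measured genes, 5.84% were at least 2-fold higher and 5.98% at least 2-fold lower. Since the group was picked on this contrast, nothing is read from its shares. Without Csgalnact1 and Hs6st2 the other 41 measured members had 4 higher (9.76%) and 3 lower (7.32%). Of these 4, Hs3st1 and Xylt2 were above the floor in Cpdm only, the array where they are high. Of the 33 members above the floor in both arrays, with Csgalnact1 and Hs6st2 among them, 4 were higher and 3 lower. The shares over the 12395 genes above the floor in both arrays were not computed, so these counts have no like background. The median log2 ratio of the members was -0.10, against 0.03 over all measured genes, with 21 members above 0 and 22 below. The counts were 10 higher and 8 lower of 50 members without a floor, and 3 and 2 of 33 with the floor at percentile 60. The same counts over all genes are given below. Another 5 members were higher and 5 lower by more than 2 of the probe set SDs (0.64 log2 units) without reaching 2-fold, and 24 lay inside that band. The shares of all genes in these ranges were not computed.

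**Figure D1:**
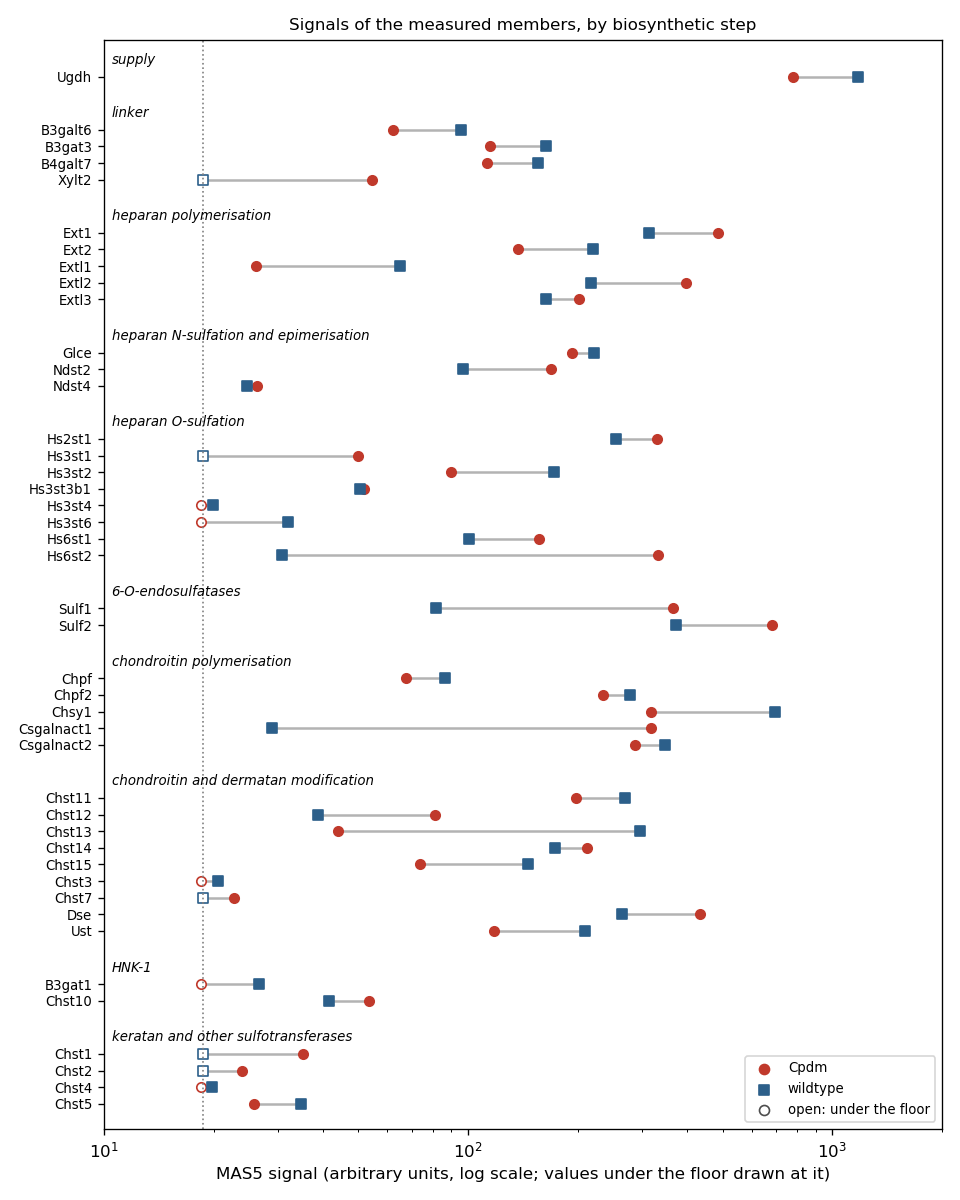
MAS5 signal (log scale) of each of the 43 measured members by its representative probe set, grouped by biosynthetic step, with Cpdm as red circles and wildtype as blue squares. Open symbols mark signals under the floor (dotted line, 18.7) and are drawn at it, positions along the axis are comparable within a row only, and the longest lines belong to Csgalnact1, Hs6st2 and Chst13.

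Transcripts for the shared start of the chains were modestly lower in Cpdm, with 1 exception. Ugdh, which makes the UDP-glucuronic acid used by both chain types, read 779 in Cpdm and 1175 in wildtype, 1.51-fold lower. The 3 glycosyltransferases that finish the linker followed the same direction. B4galt7, which adds the first galactose, read 113 in Cpdm and 155 in wildtype. B3galt6, which adds the second galactose, read 62.3 in Cpdm and 95.4 in wildtype. B3gat3, which closes the linker with glucuronic acid, read 115 in Cpdm and 164 in wildtype. These differences of 1.37-fold to 1.53-fold lay inside 2 probe set SDs. The second probe sets of B4galt7 and the other probe sets of B3galt6 that were measured gave the same sign. Xylt2, a xylosyltransferase that starts the linker on the core protein, went the other way, at 54.3 in Cpdm against 6.41 in wildtype. It was at least 2.90-fold higher, by its only probe set and with wildtype below the floor. Xylt1, the other xylosyltransferase, was not analysed here.

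The enzymes that lengthen heparan sulfate went in both directions. Ext1 and Ext2 together form the polymerase that alternates glucuronic acid and N-acetylglucosamine. Ext1 read 486 in Cpdm and 313 in wildtype, whereas Ext2 read 137 in Cpdm and 220 in wildtype, log2 ratios of 0.64 and -0.68. A second Ext1 probe set was under the floor in Cpdm and read 9.06 there against 31.0 in wildtype, the opposite sign, while a second Ext2 probe set agreed in sign at 46.4 against 62.1. The subunits of this 1 enzyme complex thus differed in sign by their main probe sets, and neither reached 2-fold.

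Among the exostosin-like genes, Extl1 was lower and the other 2 were not. Extl1, which encodes an N-acetylglucosaminyltransferase of chain elongation, read 26.1 in Cpdm against 65.0 in wildtype, 2.49-fold lower and close to the floor in Cpdm. Extl2, whose product can cap the linker and stop chain growth, read 397 in Cpdm and 218 in wildtype by its main probe set. Its other probe set showed nearly no difference, at 126 in Cpdm and 127 in wildtype. Extl3, which adds the N-acetylglucosamine that commits the chain to heparan sulfate, read 202 in Cpdm and 163 in wildtype.

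None of the measured early modifiers of heparan sulfate passed 2-fold, and Ndst2 alone lay beyond the band of 2 probe set SDs. Ndst2, which replaces N-acetyl by N-sulfate groups and so opens the way for all later steps, read 169 in Cpdm and 96.6 in wildtype, 1.75-fold higher by its only probe set. Ndst4 stayed near the floor at 26.3 in Cpdm and 24.7 in wildtype. Glce, the epimerase that turns glucuronic into iduronic acid, read 193 in Cpdm and 222 in wildtype. Hs2st1, which sulfates that iduronic acid at O-2, read 329 in Cpdm and 255 in wildtype by its main probe set, and its 4 probe sets ranged between -0.36 and 0.37 in log2 ratio. Ndst1 was not analysed here.

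The 6-O-sulfation step held the largest difference on the heparan side. Hs6st2, a 6-O-sulfotransferase of glucosamine, read 331 in Cpdm against 30.8 in wildtype, 10.8-fold higher and close to the floor in wildtype. Its other 3 probe sets lay below the floor in both arrays and give no second reading. Hs6st1, the related enzyme, read 156 in Cpdm and 101 in wildtype, 1.55-fold higher, and Hs6st3 was not above the floor. Hs6st2 lies on the X chromosome, as Chst7 does, and Xist and the Y-linked genes differed between the cultures as given above.

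The enzymes that remove 6-O-sulfate again from finished chains were higher too. Sulf1, an extracellular endosulfatase, read 365 in Cpdm against 81.5 in wildtype, 4.48-fold higher. A second Sulf1 probe set read 201 in Cpdm and 25.2 in wildtype, 7.99-fold higher. Sulf2, its paralog, read 684 in Cpdm and 371 in wildtype by its main probe set, 1.84-fold, a probe set that can bind related transcripts. The other Sulf2 probe sets passed 2-fold, at 582 against 197 and at 133 against 63.4. All 5 probe sets above the floor for these genes were thus higher in Cpdm, by 1.84-fold to 7.99-fold.

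The 3-O-sulfotransferases, which finish rare binding sites such as the one for antithrombin, did not share a direction. Hs3st1 read 50.0 in Cpdm against 11.5 in wildtype, at least 2.67-fold higher. Hs3st2 read 89.7 in Cpdm and 172 in wildtype by a probe set that can bind related transcripts, but 40.5 and 38.3 by a gene-specific one. Hs3st3b1 was even, at 51.6 in Cpdm and 50.4 in wildtype. Hs3st4 and Hs3st6 lay below the floor in Cpdm, at 11.7 and 12.8, against 19.9 and 32.1 in wildtype.

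The pair of enzymes that initiate chondroitin sulfate chains did not share a direction. Csgalnact1, which adds the first N-acetylgalactosamine and so commits the linker to chondroitin sulfate, read 318 in Cpdm against 29.0 in wildtype, 11.0-fold higher. The wildtype signal lay close to the floor. A second Csgalnact1 probe set read 71.2 in Cpdm and 6.09 in wildtype, at least 3.80-fold higher with wildtype under the floor. Csgalnact2, which catalyses the same reaction, read 287 in Cpdm and 347 in wildtype.

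Of the polymerising enzymes, Chsy1 was lower by at least 2-fold. Chsy1, the main chondroitin synthase, read 317 in Cpdm against 694 in wildtype, 2.19-fold lower by its only probe set. Its cofactors were near equal, with Chpf at 67.6 in Cpdm and 86.5 in wildtype and Chpf2 at 234 and 279. A second Chpf2 probe set had the opposite sign, at 38.3 in Cpdm and 31.6 in wildtype.

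The 4-O-sulfotransferases of chondroitin sulfate went in both directions. Chst13 read 43.9 in Cpdm against 296 in wildtype, 6.73-fold lower, the largest deficit among the members. Chst12 read 81.3 in Cpdm against 38.7 in wildtype, 2.10-fold higher. Chst11, the enzyme whose loss in mice disturbs the growth plate, read 198 in Cpdm and 270 in wildtype, and its second probe set was even at 23.6 and 24.1. Chst13 and Chst12, each with 1 probe set, thus passed 2-fold in opposite directions. Chst14, which sulfates the same position in dermatan sulfate, read 212 in Cpdm and 173 in wildtype.

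**Figure D2:**
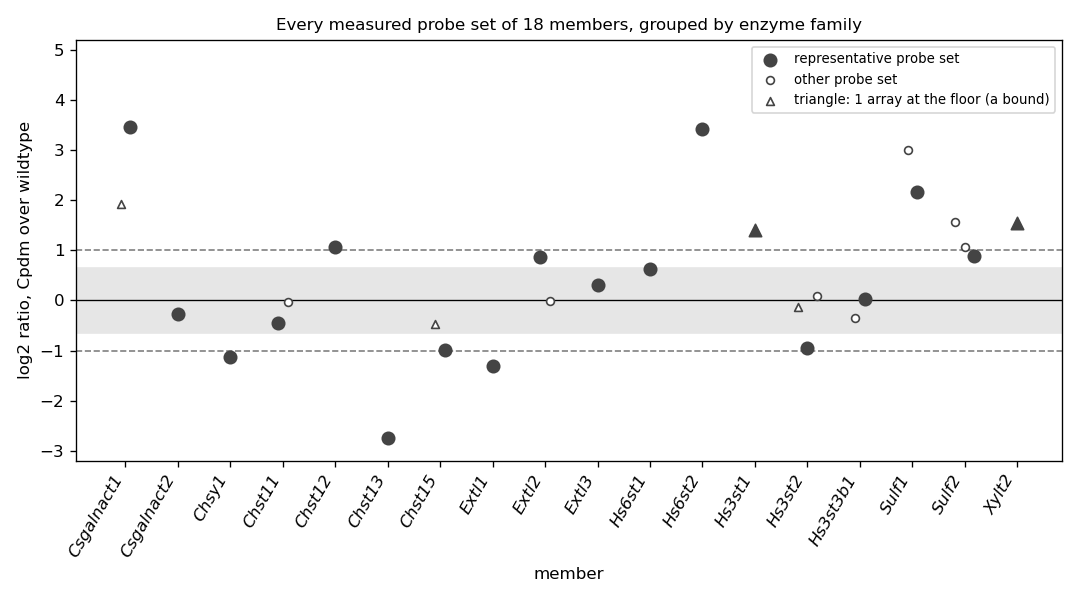
Log2 ratio of Cpdm over wildtype signal for every measured probe set of 18 members arranged by enzyme family, with large filled symbols for the representative probe set, triangles for bounds, a grey band of 2 probe set SDs (0.64) either side of 0 and dashed lines at 2-fold. Csgalnact1, Hs6st2 and Sulf1 stand at the top, Chst13 at the bottom, and the paralogs Csgalnact2, Hs6st1 and Chst11 lie inside the band.

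No other modifier of chondroitin and dermatan sulfate passed 2-fold with the floor used. Chst15, which adds a further sulfate at O-6 of 4-sulfated N-acetylgalactosamine, read 73.7 in Cpdm and 146 in wildtype, a log2 ratio of -0.98 just short of 2-fold, and its other probe set was lower as well, at 6.61 in Cpdm against 25.5 in wildtype. Ust, the 2-O-sulfotransferase of uronic acid, read 118 in Cpdm and 209 in wildtype, and a second probe set, under the floor in Cpdm, gave 18.4 and 27.5. Dse, the epimerase that turns chondroitin into dermatan sulfate, read 433 in Cpdm and 265 in wildtype, 1.63-fold higher by its only probe set. The 6-O-sulfotransferases Chst3 and Chst7 lay at the edge of detection, Chst3 at 4.0 in Cpdm against 20.5 in wildtype and Chst7 at 22.8 in Cpdm against 3.21 in wildtype. Their folds are lower bounds only, and with the floor at percentile 20 both passed 2-fold, with log2 ratios of -1.87 for Chst3 and 1.89 for Chst7.

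The remaining members act on other sulfated sugars. Chst10, which makes the HNK-1 epitope of neural glycoproteins, read 53.3 in Cpdm and 41.4 in wildtype. B3gat1, the glucuronyltransferase of that epitope, was below the floor in Cpdm at 12.7 against 26.7 in wildtype. Chst1, a keratan sulfate sulfotransferase, read 35.3 in Cpdm against 11.3 in wildtype, at least 1.88-fold higher. Chst2 read 24.0 in Cpdm against 11.2 in wildtype, Chst4 read 7.40 against 19.7, and Chst5 read 25.8 against 34.8. Apart from those of Chst10, these signals lay near the floor.

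Agreement between probe sets limits what single values can carry. Of the 43 measured members, 12 had several probe sets that cleared the floor in each array. In 7 of these all such probe sets had the same sign, and in 5 (Chpf2, Extl2, Hs2st1, Hs3st2 and Hs3st3b1) they did not. The span within a member had a median of 0.47 and reached 1.02 in Hs3st2. Among the 9 members that passed 2-fold, Sulf1 alone had another probe set that cleared the floor in each array, Csgalnact1 had one that cleared it in Cpdm, and the other 7 rest on 1 probe set. With the floor at percentile 60, Chst12, Extl1, Hs3st1 and Xylt2 were no longer past 2-fold.

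The core proteins that carry the chains were compared as neighbours in the pathway, with no test of the difference. Of 12 measured carriers of heparan sulfate, 1 passed 2-fold in each direction, and the median log2 ratio was -0.08. Gpc1, a membrane-anchored glypican, read 160 in Cpdm against 1889 in wildtype, 11.8-fold lower by its only probe set. Sdc1, a transmembrane syndecan, read 716 in Cpdm against 314 in wildtype, 2.28-fold higher, while its 4 probe sets ranged between -0.27 and 1.23 in log2 ratio. The remaining 10 heparan sulfate carriers stayed under 2-fold by their main probe sets. Another probe set of 3 of them was past 2-fold on the lower side, at 46.3 in Cpdm against 210 in wildtype for Sdc3, 57.7 against 189 for Gpc4 and 18.5 against 52.6 for Tgfbr3, the last of these below the floor in Cpdm.

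Carriers of chondroitin and dermatan sulfate went in both directions. Among 13 measured, 3 were higher and 5 lower by at least 2-fold, and their median log2 ratio was -0.21. Vcan, the large matrix proteoglycan versican, was 9.95-fold higher by a probe set near the floor in wildtype (21.7). Its other measured probe sets each had an array under the floor, so their folds are bounds. They read 88.2 in Cpdm against 3.82 in wildtype, 23.9 against 14.5 and, on the lower side, 9.23 against 18.8. Cd74, the invariant chain of class II antigen presentation, read 211 in Cpdm and 97.0 in wildtype, and Thbd, thrombomodulin, read 161 and 79.3. On the lower side, Ptprz1, a receptor phosphatase that carries chondroitin sulfate, read 26.4 in Cpdm against 1832 in wildtype. Bcan, the lectican brevican, read 43.2 in Cpdm against 481 in wildtype. The small collagen-binding proteoglycans were also lower, with Bgn at 1690 in Cpdm against 4226 in wildtype and Dcn at 954 against 2357. Cspg4 was the remaining gene lower by at least 2-fold.

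In supply and in breakdown, 1 gene each passed 2-fold by its main probe set. Of 10 measured genes for sulfate donor and sugar nucleotide supply, Papss2, which makes PAPS, was at least 2-fold lower, 2.22-fold, and its other 2 measured probe sets were lower too. The other 9 lay under 2-fold by their main probe sets, while a second probe set of Bpnt1 read 29.1 in Cpdm against 150 in wildtype, 5.16-fold lower. Of 11 measured genes of chain degradation, Hpse, the heparanase that cuts heparan sulfate, was 2.65-fold higher at 1158 in Cpdm against 437 in wildtype. The other 10 lay under 2-fold, and the median log2 ratio of the 11 was 0.38. Among them Naglu and Sgsh take heparan sulfate apart in lysosomes. Their main probe sets had log2 ratios of 0.77 and 0.76, beyond the band of 2 probe set SDs. A second Sgsh probe set had the opposite sign, at 25.5 in Cpdm against 29.3 in wildtype. Macrophage markers did not all share a direction between these cultures, as given above, and their part in these values was not tested.

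**Figure D3:**
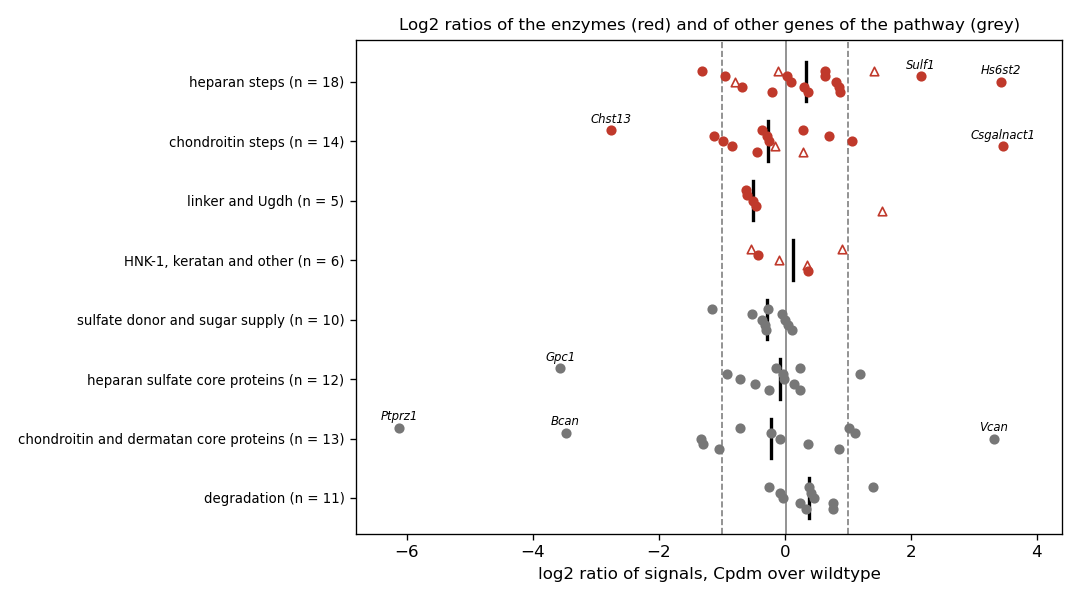
Log2 ratio of Cpdm over wildtype signal for each measured enzyme (red, 4 upper rows) and for other genes of the pathway (grey, 4 lower rows), with black bars at row medians, open triangles for bounds, a thin line at the median of all measured genes (0.03) and dashed lines at 2-fold. Genes beyond 4-fold are named, and the row medians lie between -0.51 and 0.38 while single genes reach 3.46 and -6.12.

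The sequences upstream of 3 members are shown, Hs6st2 for the largest difference on the heparan side and Chst12 and Chst13 for the opposite directions within the 4-O-sulfotransferases. They are from RefSeq (GRCm38.p6) and run 5′ to 3′ on the strand of the gene over the 250 bases before an annotated start. Of the 50 members 41 had an entry, with 48 starts in all, and 7 of the 9 members past 2-fold were among them, while Csgalnact1 and Sulf1 were not. Capitals mark a GC box (GGGCGG) or a TATA box (TATAAA), found on either strand. The positions below are those of the RefSeq table, and no genome build is named with the array values.
Hs6st2, first start, chrX:51681603-51681852, minus strand: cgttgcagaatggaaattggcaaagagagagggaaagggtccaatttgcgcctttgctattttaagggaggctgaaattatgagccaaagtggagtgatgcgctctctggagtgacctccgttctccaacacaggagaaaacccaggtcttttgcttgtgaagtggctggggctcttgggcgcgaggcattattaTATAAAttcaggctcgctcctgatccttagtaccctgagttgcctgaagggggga
Hs6st2, second start, chrX:51680478-51680727, minus strand: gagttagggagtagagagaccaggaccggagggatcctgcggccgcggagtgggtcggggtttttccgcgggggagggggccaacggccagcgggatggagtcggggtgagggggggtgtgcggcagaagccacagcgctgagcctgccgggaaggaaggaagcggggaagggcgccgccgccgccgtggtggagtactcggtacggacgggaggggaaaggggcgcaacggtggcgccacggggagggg
Chst12, chr5:140505359-140505608, plus strand: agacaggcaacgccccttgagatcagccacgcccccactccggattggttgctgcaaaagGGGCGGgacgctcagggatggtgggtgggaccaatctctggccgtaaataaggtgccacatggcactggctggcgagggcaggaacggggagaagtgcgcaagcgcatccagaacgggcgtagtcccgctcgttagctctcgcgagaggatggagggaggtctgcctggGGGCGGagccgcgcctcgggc
Chst13, chr6:90325186-90325435, minus strand: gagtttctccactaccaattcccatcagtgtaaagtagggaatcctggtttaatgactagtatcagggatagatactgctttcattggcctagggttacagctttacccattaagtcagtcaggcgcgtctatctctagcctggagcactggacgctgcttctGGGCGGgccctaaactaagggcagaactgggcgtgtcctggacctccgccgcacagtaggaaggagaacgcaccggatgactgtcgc

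The first Hs6st2 start had the letters TATAAA beginning 55 bases upstream, and the second had none. The G and C content was 50.0% at the first and 72.0% at the second. Chst12, which was higher in Cpdm, had GC boxes beginning 190 and 21 bases upstream, and Chst13, which was lower, had 1 beginning 87 bases upstream. A GC box stood in 28 of the 48 member windows (58.3%) and in 32.7% of all 32851 windows in the table. The letters TATAAA stood in 2 of 48 (4.17%) and in 12.4% of all windows. They were counted anywhere in the window on either strand, so a match need not be a working TATA box. Further letters searched on both strands were TGTGGT, the hexamer of the osteoblast factor family RUNX, TGANTCA for AP-1 and GGGANTTTC for NF-κB, with an overlap between motifs allowed. They stood in 2, 2 and 0 of the 48 member windows, and in 14.0%, 6.75% and 0.941% of all windows. None of these 3 motifs was found in the sequences shown, which says only that these letters are absent from these windows.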

How the data were processed

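The deposited table holds linear MAS5 signal intensity for 45101 probe sets and 2 arrays, 1 Cpdm and 1 wildtype. GCOS 1.4 and MAS5 are named per the submitters' processing notes, and per the labels' protocols biotin-labelled cRNA was made from 5 µg of total RNA. The sources used here name no scaling target, background setting or genome build, and the table holds no detection calls. The number of arrays limits the precision.

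Of 45037 probe sets that are not controls, 34945 had 1 gene in the platform annotation, 932 several and 9160 none listed. All 50 member symbols matched a current RefSeq record by Entrez identifier. The deposited signals were used as scaled by the authors, floored at percentile 40 per array, and turned into log2 ratios of Cpdm over wildtype. The brightest probe set by mean log2 signal represented a gene, and a difference of at least 2-fold was counted. Every member was named, and of the other pathway genes those past 2-fold, at most 4 in each direction, except that Cspg4 is named without values. Sdc3, Gpc4, Tgfbr3, Bpnt1, Naglu and Sgsh were added after their values were seen. Python 3.11.15, numpy 2.4.6 and pandas 2.3.3 were used, and the steps were tested on simulated data. The members, gene lists and motifs were chosen with earlier results of these data known. With 1 array per genotype there is no test. Alternatives varied the floor, scaling, probe set rule and fold.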

Additional observations from a re-analysis of the deposited data

How the results depend on the processing

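The counts of members at least 2-fold higher and lower (6 and 3) depended on the floor and the fold rule. Without a floor they were 10 and 8 of 50 members, and with the floor at percentile 20 they were 9 and 7 of 45. With the floor at percentile 60 they were 3 and 2 of 33, where Hs3st1, Xylt2, Chst12 and Extl1 no longer passed 2-fold. A 1.5-fold rule gave 13 and 10, and a 3-fold rule gave 3 and 1. The shares of all genes under these fold rules were not computed, so these member counts have no background beside them. Over all genes the counts without a floor were 1687 higher and 1849 lower of 18193. They were 1265 and 1397 of 16540 at percentile 20 and 602 and 591 of 10903 at percentile 60, against 821 and 840 of 14055. Quantile normalization, equal medians and spike-in scaling left the members' counts at 6 and 3. Over all 14055 genes the counts were 832 and 832, 818 and 843, and 805 and 863 under these settings, in that order. The mean over probe sets gave 7 and 3, against 676 and 776 of all 14055 genes. Leaving out identifiers ending in _s_at, _x_at or _a_at gave 5 and 3 of 39 members, against 725 and 740 of 12375 genes. Sulf2 passed 2-fold under both.

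Csgalnact1, Hs6st2, Sulf1, Chst13 and Chsy1 passed 2-fold under all 8 processing alternatives, with log2 ratios of 2.69 to 3.46, 2.94 to 3.43, 2.15 to 2.58, -2.76 to -2.75 and -1.14 to -1.13. Csgalnact1 and Hs6st2 are the genes the group was picked by, so their passing carries no weight as evidence. Chst13 and Chsy1 each have 1 probe set, above every floor used, so only the rescalings could move them. None of the 9 members past 2-fold changed sign. The members' median lay between -0.11 and 0.06, on either side of 0. Of 330 recomputed member values 31 moved by over 1 probe set SD. Chpf, Chst4, Hs3st1 and Xylt2 have no other probe set and gave no value without the suffixed identifiers. No paired analysis was possible because each genotype has 1 array. Signals near the floor limit the folds of Extl1, Hs3st1, Xylt2, Chst3 and Chst7. They also limit those of Csgalnact1 and Hs6st2, whose wildtype signals were 29.0 and 30.8. With the floor at percentile 60 the log2 ratios of these 2 genes were 2.88 and 2.94.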

Other observations

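Probe sets under the floor are not counted above, but for some members they differed between the arrays. The 3 further Hs6st2 probe sets read 16.7, 6.44 and 5.65 in Cpdm, against 0.417, 0.597 and 4.15 in wildtype. A further B3gat3 probe set read 1.84 in Cpdm against 18.4 in wildtype, and one of Ext2 read 6.94 against 1.21. All of them lay below the floor of either array, where MAS5 signals are noisy, so they give no second reading of these genes.

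Probe sets that name a member together with another gene were left out of all counts. The probe set shared by Hs3st5 and Apba3 read 8.56 in Cpdm and 13.4 in wildtype, and the one shared by Phactr1 and Chst11 read 2.91 in Cpdm and 3.36 in wildtype.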
